A study of Rattus norvegicus with 6 samples.

Results

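The adrenergic receptors described here are 7 genes, Adra1a, Adra1b, Adra1d, Adra2a, Adra2b, Adrb1 and Adrb3, measured on arrays of aortic RNA. All animals were spontaneously hypertensive rats (SHR), whose blood pressure is raised by inheritance. They were taken as all probe sets whose single gene symbol in the platform annotation is one of these names, which gave 10 probe sets of 8799 in all, for 7 of 4736 named genes. The genes of the alpha-2C and beta-2 receptors were not analysed here. Runners were rats with 5 weeks of voluntary wheel running, and non-runners were rats of the same strain that did not run. Each group had 3 arrays, A, B and C, and each array carried total RNA of a pool of 3 aortae. The labels give neither age nor sex, and how the pools were made up is not stated in them. The p-values therefore rest on the spread among pools, part of which may be technical.

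Adrenergic receptors are the membrane proteins through which noradrenaline, released by sympathetic nerves, and adrenaline, released by the adrenal medulla, act on the vessel. Alpha-1 receptors couple to Gq, raise calcium in smooth muscle and constrict the artery, and the alpha-1D form is known as a main mediator of this contraction in rat aorta. Alpha-2 receptors couple to Gi and lower cAMP, and on nerve endings they restrain noradrenaline release. Beta receptors couple to Gs and raise cAMP. The beta-1 form is best known for driving the heart, and the beta-3 form for lipolysis and heat production in white and brown fat.

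Of the 7 receptor genes, Adra1d and Adrb3 had a probe set that stayed above the control level on all 6 arrays, Adra2b lay about at that level, and the other 4 lay below it on every array. The control level, an intensity of 40.8, is a value that 95% of the readings of 19 yeast or sense-strand control probe sets did not exceed, used because the deposited table has no detection calls. Between 55.4% and 57.5% of the probe sets that are not controls lay at or below it on each array. No receptor passed the test between runners and non-runners. Of the 7 receptor probe sets that passed the filter on dim signals, 0 passed limma's test at an adjusted p under 0.05, where 0% of all 5244 tested probe sets did. At an unadjusted p under 0.05 the count was 0 of 7, against 8.09% of all tested.

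Across the whole experiment, array medians ran from 28.5 to 32.2 and log2 profiles correlated at 0.935 to 0.977. Non-runner B stood apart, with an SD of log2 differences of 0.557 to 0.614 in pairs that include it and 0.36 to 0.414 in other pairs. The 3'/5' ratio of the beta-actin control, a measure of RNA integrity, was 1.22 to 1.43 in runners, against 1.28, 2.14 and 1.67 in non-runners A, B and C (exact permutation p = 0.3, two-sided). For GAPDH it was 1.11 to 1.22 in runners, against 1.22, 1.95 and 1.39 in non-runners (p = 0.1 by the same exact test, which cannot go lower with these group sizes). All 9 smooth muscle markers on the array were above the control level on at least 1 array. Markers of fat cells around the vessel were present too, with 11 of 12 adipocyte and 6 of 8 brown adipocyte markers above it on at least 1 array. Fewer cells of a type and less RNA per cell cannot be told apart in such samples.

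**Figure D1:**
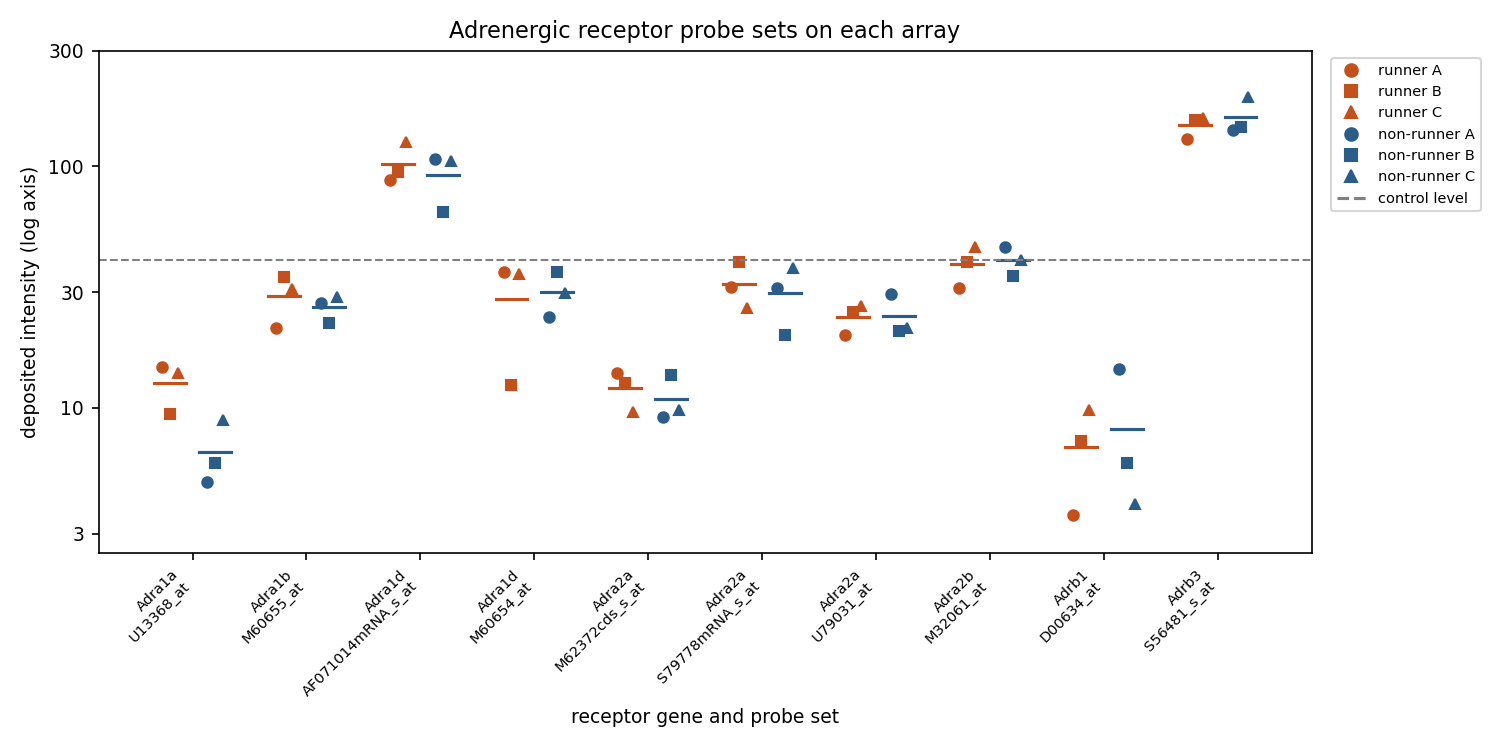
Deposited intensity (log axis) of each receptor probe set on each array, with runner arrays to the left of non-runner arrays, a bar at each group's mean and a dashed line at the control level of 40.8. Adra1d (AF071014mRNA_s_at) and Adrb3 lie above the line on all 6 arrays, and the groups overlap for every probe set except that of Adra1a.

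Adra1d, the alpha-1D receptor of arterial contraction, had intensities of 87.6, 94.5 and 125.2 in runners A, B and C, against 106.5, 64.7 and 104.5 in non-runners, in its probe set AF071014mRNA_s_at. The groups overlapped, with the highest value on runner C and the lowest on non-runner B. The mean was 102 ± 20.0 for runners, against 91.9 ± 23.6 for non-runners (SD, n = 3 each). The log2 difference, runner minus non-runner, was 0.17 ± 0.23 (SE), with a 95% interval of -0.37 to 0.71 and a limma adjusted p = 0.86. That interval spans a runner level of 0.775 to 1.63 times the non-runner level, so a change inside it was not excluded. It is not a limit of detection. Without non-runner B, the array with the high 3'/5' ratios, the difference was -0.063 (limma adjusted p = 0.936). The part of RNA integrity in this value was not tested beyond the covariate fit, in which the difference was -0.16 (limma adjusted p = 0.975).

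A second Adra1d probe set, M60654_at, stayed below the control level on every array and ordered the arrays differently. It had 36.4, 12.4 and 35.6 in runners, against 23.8, 36.5 and 29.8 in non-runners, and limma's adjusted p was 0.878. Its highest value lay on non-runner B, the array on which the first probe set was lowest, and its lowest on runner B. The residual SD of M60654_at was 0.621 on the log2 scale, larger than that of 95.5% of the tested probe sets, against a median of 0.233 over all tested. For AF071014mRNA_s_at it was 0.332. No fold is given for a probe set below the control level in both groups.

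Smooth muscle markers give a setting for Adra1d. Acta2, smooth muscle actin, measured 3932, 3896 and 4412 in runners, against 4648, 2913 and 4594 in non-runners, and was lowest on non-runner B like Adra1d. Of the 9 tested smooth muscle markers, 4 were lowest on that array. The log2 difference was above 0 for 6 of the 9 and below 0 for 3, with a median of 0.04. Deposited intensities of all 9, which the brightest of them dominate, summed to 14800 to 16490 in runners, against 15700 to 17700 in non-runners. Myh11, smooth muscle myosin, was among the 5 not lowest on non-runner B, at 1914, 1575 and 1723 in runners, against 1902, 1950 and 1964 in non-runners. Of its 3 tested probe sets only 1, the brightest given here, had a log2 difference below 0. The dip of Adra1d on non-runner B was thus shared by part of the smooth muscle markers only.

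The other alpha-1 receptors gave signals that did not stand out from the control probe sets. Adra1b, the alpha-1B receptor, had 21.4, 34.8 and 31 in runners, against 27.1, 22.3 and 28.8 in non-runners (M60655_at, limma adjusted p = 0.912). These values overlapped between the groups. Adra1a, the alpha-1A receptor of small arteries and the urinary tract, had 14.7, 9.4 and 13.9 in runners, against 4.9, 5.9 and 8.9 in non-runners (U13368_at). It was the 1 receptor probe set of 10 whose groups did not overlap, where 12.9% of all 8740 probe sets that are not controls did not. All 6 values lay below the control level, and the filter on dim probe sets left it out. Without that filter limma gave an adjusted p = 0.696 (unadjusted 0.0305), and no fold is given because both groups lay below the control level.

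Adra2b, the alpha-2B receptor, had 31.4, 40 and 46 in runners, against 46.3, 35.1 and 40.8 in non-runners (M32061_at). Runner C and non-runner A were above that of the control probe sets, non-runner C equalled it as rounded, and the other 3 arrays lay below it. The mean was 39.1 ± 7.34 for runners, against 40.7 ± 5.6 for non-runners (SD, n = 3 each). The log2 difference was -0.08 ± 0.17 (SE), with a 95% interval of -0.47 to 0.31 and a limma adjusted p = 0.913. Both means lay below the control level, so this difference describes the probe set rather than an established level of the receptor.

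Adra2a, the alpha-2A receptor that acts as the main brake on noradrenaline release, was represented by 3 probe sets, all below the control level on all 6 arrays. S79778mRNA_s_at had 31.7, 40 and 25.8 in runners, against 31.2, 19.9 and 37.9 in non-runners (limma adjusted p = 0.923). U79031_at had 19.9, 24.8 and 26.3 in runners, against 29.6, 20.8 and 21.4 in non-runners (limma adjusted p = 0.949). Each overlapped between the groups, and they did not place the arrays in the same order: non-runner A was the highest array in U79031_at and in the middle in S79778mRNA_s_at, whose highest was runner B. M62372cds_s_at had 9.1 to 13.9 over the 6 arrays and was left out by the filter on dim probe sets.

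Adrb3, the beta-3 receptor of fat cells, stayed well above the control level, with 129.6, 154.5 and 157.7 in runners, against 141, 145.6 and 192.9 in non-runners (S56481_s_at). The groups overlapped, and the highest value, on non-runner C, was 1.49 times the lowest, on runner A. The mean was 147 ± 15.4 for runners, against 160 ± 28.7 for non-runners (SD, n = 3 each). The log2 difference was -0.10 ± 0.18 (SE), with a 95% interval of -0.51 to 0.32 and a limma adjusted p = 0.906. In terms of fold, the interval runs from 0.704 to 1.25 times the non-runner level. Without non-runner C the difference was 0.046 (limma adjusted p = 0.941).

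The tested brown fat markers other than Ucp3 spanned a wider range over the arrays than Adrb3 did. Ucp1, the uncoupling protein of brown fat, measured 1191, 1529 and 881 in runners, against 1407, 764 and 1582 in non-runners, lowest on non-runner B and next lowest on runner C. Adrb3 was in the middle of its range on both of these arrays. Of the 6 tested brown adipocyte markers, 5 were lowest on non-runner B, and of the 12 tested adipocyte markers, 8 were. So were 1 of 7 endothelial, 1 of 6 sympathetic nerve and 0 of 3 Schwann cell markers. The count was 1 of 2 for macrophage, 0 of 4 for blood and 0 of 6 for skeletal and cardiac muscle markers. A share over all tested genes is not given here. Cpt1b, the muscle and brown fat form of the carnitine transferase that admits fatty acids to mitochondria, was also lowest on non-runner B. It had 266, 297 and 179 in runners, against 345, 100 and 301 in non-runners. The 2 tested probe sets of Cpt1b had log2 differences of opposite sign. All 8 brown adipocyte markers on the array summed to 1768 to 2969 in runners, against 1595 to 3081 in non-runners, and 0 of the 6 tested passed limma's test.

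**Figure D2:**
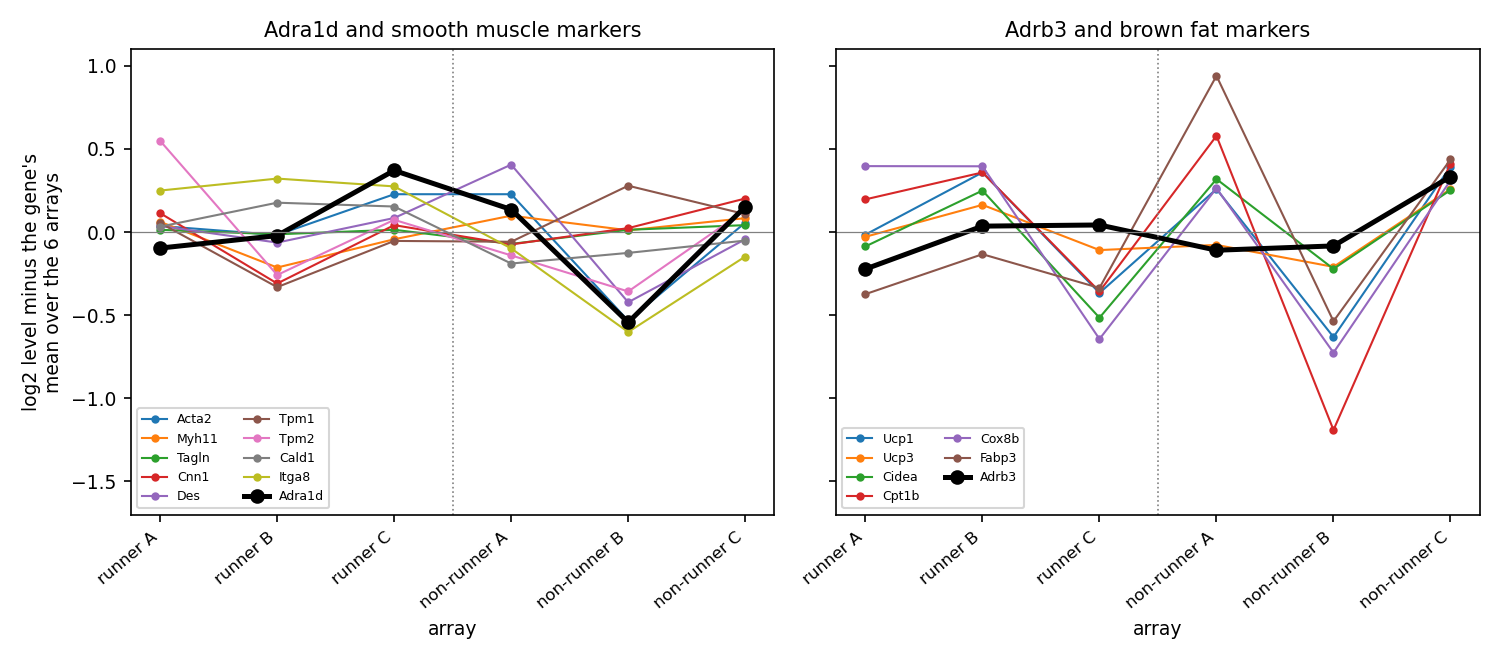
Log2 level of each gene on each array minus its mean over the 6 arrays, with Adra1d among 9 smooth muscle markers on the left, Adrb3 among 6 brown adipocyte markers on the right, and runner arrays left of the dotted line. On non-runner B Adra1d lies at -0.543 and Acta2 at -0.533, while Adrb3 stays between -0.222 and 0.334 and does not share the dips of Ucp1 and Cpt1b.

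Adrb1, the beta-1 receptor, had 3.6, 7.3 and 9.8 in runners, against 14.5, 5.9 and 4 in non-runners (D00634_at). All 6 values lay below the control level, the groups overlapped, and the filter on dim probe sets left it out. Without the filter limma's adjusted p was 0.934.

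In 4 of the 10 probe sets the name ends in _s_at, which on these arrays marks probes that match more than 1 transcript. Both that lay above the control level on all arrays, for Adra1d and Adrb3, are of that kind, and how much of their signal other transcripts give was not tested. Genes whose profile over the 6 arrays was nearest to each of them were found among 2034 other genes above the control level on all arrays, by the root mean square distance between log2 profiles centred on their means. For Adra1d these were RT1-Ba, a class II antigen presentation gene (distance 0.0817), Grina, a membrane protein (0.086), and Ift46, of intraflagellar transport (0.0946). RT1-Ba measured 81.9, 91.2 and 129.2 in runners, against 109.7, 61.7 and 91.1 in non-runners. For Adrb3 they were Tpm3, a tropomyosin (0.0769), Sfxn1, a mitochondrial carrier (0.0845), and Scn7a, a sodium channel relative (0.0858). The likeness for Adra1d includes the low value on non-runner B, which all 3 genes share, and with 6 arrays such nearness is a description only.

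The genes around the receptors were taken from 5 lists, and 0 of their tested genes passed limma's test in either direction. Most genes named below were picked by the smallest p of their list. Groups did not overlap for 12.9% of all 8740 probe sets that are not controls. Among the named genes, they did not overlap for Maob, Gnb2, Prkar1a and Akap12, which were higher in runners. Nor did they for Th, Gnas, Gnai2, Itpr3, Plcb2 and Adcy2, which were lower. Picking by the smallest p favours genes without overlap, so these genes cannot be set against the 12.9%. Groups also did not overlap for some tested list genes that are not named. Over all 3173 tested genes, by the brightest probe set of each, the median log2 difference was -0.02 and 46.3% were higher in runners. Catecholamine synthesis, storage, uptake and breakdown had 8 tested genes of 12 on the array, 4 higher and 4 lower, with a median of -0.01. Th, tyrosine hydroxylase, which makes the precursor of noradrenaline in sympathetic nerves, measured 36.6, 68.8 and 29.8 in runners, against 101.7, 73.9 and 72 in non-runners, so the groups did not overlap. Its log2 difference was -0.93 ± 0.31 (SE, limma adjusted p = 0.564). All 6 tested sympathetic nerve markers, Th among them, had values below 0, from -0.93 to -0.03 with a median of -0.21. Of the 10 sympathetic nerve markers on the array, 4 lay below the control level on all arrays. Th lay below the control level on runners A and C. The summed intensity of all 10 sympathetic nerve markers on the array ran from 231 to 402 in runners, against 314 to 486 in non-runners. All 3 tested Schwann cell markers were below 0 as well, with a median log2 difference of -0.47. The 5 on the array summed to 1028 to 1139 in runners, against 1280 to 1580 in non-runners. Pmp22 alone made up most of each sum, at 814, 771 and 784 in runners, against 897, 1170 and 963 in non-runners. Of the 5 Schwann cell markers, 2 lay below the control level on all arrays. The part of nerve content in the value of Th was not tested. Maob, monoamine oxidase B, which breaks down amines, had 34.9, 41.1 and 49.9 in runners, against 31.2, 25.7 and 28.6 in non-runners (limma adjusted p = 0.547), with 2 of 6 arrays above the control level. Pnmt, which turns noradrenaline into adrenaline, averaged 44.6 ± 5.03 in runners, against 53.4 ± 6.05 in non-runners (SD, n = 3 each). Gch1, of the synthesis of tyrosine hydroxylase's cofactor, was below the control level on all arrays, as 32.4 ± 5.76 in runners, against 28.1 ± 7.6 in non-runners. Slc6a2, the noradrenaline transporter of nerve endings, averaged 38.2 ± 10.6 in runners, against 37.7 ± 5.63 in non-runners, both below the control level.

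Heterotrimeric G protein subunits, which carry the signal from the receptors, had 14 tested genes, 5 higher and 9 lower, with a median of -0.06. Gnas, the Gs alpha subunit used by beta receptors, measured 3332, 3763 and 3397 in runners, against 4504, 4624 and 4554 in non-runners, without overlap. Its log2 difference after quantile normalization was -0.25 ± 0.14 (SE, limma adjusted p = 0.692), with the same sign in 3 of its 4 tested probe sets. Gnai2, a Gi alpha subunit used by alpha-2 receptors, measured 841, 823 and 884 in runners, against 934, 1410 and 1083 in non-runners. The highest value lay on non-runner B, the log2 difference was -0.37 ± 0.17 (SE, limma adjusted p = 0.645), and 2 of 3 probe sets shared its sign. It was -0.23 without that array. Gnb2, a beta subunit, averaged 407 ± 21.4 in runners, against 352 ± 25.4 in non-runners, and Gng8, a gamma subunit, 174 ± 22.0 in runners, against 147 ± 14.2 in non-runners (SD, n = 3 each). Neither passed limma's test (adjusted p = 0.737 and 0.728), and the 2 tested Gng8 probe sets differed in sign.

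The Gq arm, with phospholipase C, protein kinase C and calcium release genes, acts below alpha-1 receptors. It had 11 tested genes, 3 higher and 8 lower, with a median of -0.05 that was -0.00099 when all tested probe sets of a gene were averaged. Itpr3, a receptor that releases stored calcium, measured 130, 135 and 147 in runners, against 184, 213 and 188 in non-runners, without overlap. Its log2 difference was -0.49 ± 0.14 (SE, limma adjusted p = 0.48), and 1 of its 2 tested probe sets had the opposite sign. Plcb2, a phospholipase C, was below the control level on all arrays, at 16.9 ± 5.08 in runners, against 25.2 ± 3.07 in non-runners (SD, n = 3 each). Plcb3, another phospholipase C, averaged 31.7 ± 6.7 in runners, against 38.4 ± 11.9 in non-runners, with both means below the control level and 2 of 6 arrays above it. Ppp1r12a, the myosin-binding subunit of myosin phosphatase, averaged 162 ± 8.35 in runners, against 151 ± 50.7 in non-runners (SD, n = 3 each, limma adjusted p = 0.879). Its log2 difference was 0.15, and -0.052 without non-runner B.

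The adenylyl cyclase, protein kinase A and cAMP arm, which beta receptors drive and alpha-2 receptors restrain, had 22 tested genes, 15 higher and 7 lower, with a median of 0.04. Adcy2, an adenylyl cyclase, measured 48.1, 40.3 and 51.5 in runners, against 60.2, 64.3 and 55.3 in non-runners (limma adjusted p = 0.589). Prkar1a, a regulatory subunit of protein kinase A, measured 262, 269 and 259 in runners, against 248, 181 and 195 in non-runners (limma adjusted p = 0.649). Pde4d, which degrades cAMP, and Akap12, which anchors protein kinase A, were below the control level on all arrays. Pde4d averaged 19.5 ± 2.4 in runners, against 25.1 ± 3.64 in non-runners, and Akap12 averaged 34.9 ± 4.05 in runners, against 27.7 ± 0.458 in non-runners (SD, n = 3 each). Receptor desensitisation genes, the kinases, arrestins and RGS proteins that switch receptor signals off, had 9 tested genes, 8 higher and 1 lower, with a median of 0.03. Grk5, a receptor kinase, averaged 38.6 ± 5.11 for runners, against 41.1 ± 8.04 for non-runners, and Grk6, another, 207 ± 27.5 for runners, against 200 ± 17.6 for non-runners (SD, n = 3 each). Rgs14, which speeds the shut-off of Gi signals, averaged 107 ± 9.19 in runners, against 102 ± 15.4 in non-runners, and Grk1, another receptor kinase, stayed below the control level. The 8 genes that were higher lay close to 0. Without non-runner B the sign turned for Grk5 and Grk1 and the list median was 0.0105. In the fit of all arrays the smallest adjusted p of the list was 0.912.

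**Figure D3:**
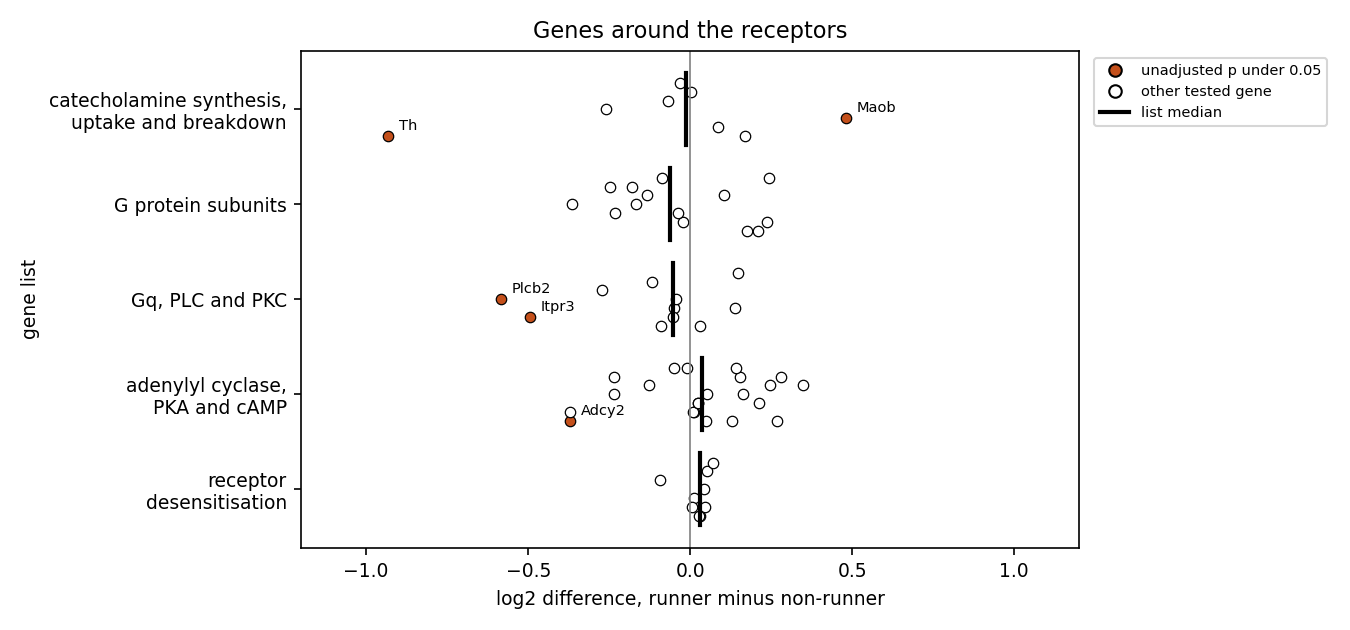
Log2 difference, runner minus non-runner, of each tested gene in the 5 lists around the receptors, with a bar at each list's median and filled points at an unadjusted p under 0.05 by limma. The medians lie between -0.06 and 0.04, and Th at -0.93 and Maob at 0.48 are the outermost genes, neither past an adjusted p of 0.05.

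The differences of the 3 receptor probe sets with any array above the control level were small beside their intervals under each setting tried. Adra1d ranged from -0.16 to 0.17 over the alternatives that kept 6 arrays and from -0.06 to 0.29 as arrays were left out in turn. Adra2b ranged from -0.21 to -0.06 and from -0.17 to 0.03, and Adrb3 from -0.21 to -0.08 and from -0.18 to 0.05. In these alternatives 0 receptor probe sets reached an adjusted p under 0.05 by limma.

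**Figure D4:**
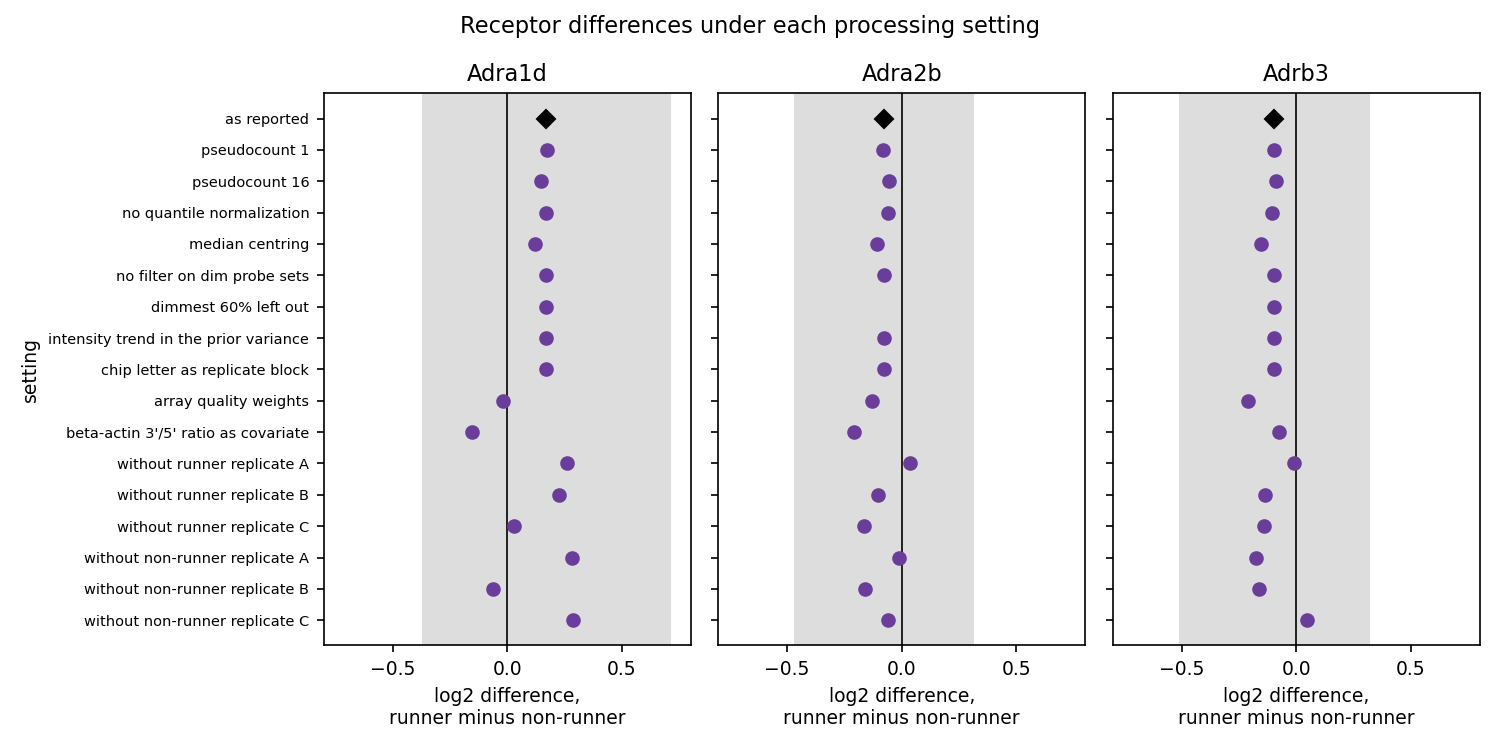
Log2 difference, runner minus non-runner, of Adra1d (AF071014mRNA_s_at), Adra2b and Adrb3 as reported (diamond) and under each alternative setting (circles), with the 95% interval of the reported value shaded and a missing circle where the filter left the probe set out. All circles lie inside the shaded intervals, and those of Adra1d lie on both sides of 0.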

How the data were processed

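Each of 6 Affymetrix rat arrays carried total RNA of pooled aortae, and samples were grouped by their titles. Values in the deposited table are intensities on a linear scale, 1 per probe set and array, scaled by the authors to a common level, as the values show: each array's mean, trimmed by 2% at either end, was 100.1. The software that made them is not stated in the labels. Precision is limited by the number of arrays. Symbols came from the platform annotation, and 6985 of 7006 probe sets with 1 symbol matched the gene table of rat assembly GRCr8, which changed 0 symbols.

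The 59 control probe sets were left out, and log2(intensity + 2.4), with the 10th percentile of positive values as pseudocount, was quantile normalized because array medians differed by up to 1.13 times. Fold changes on this scale understate those of dim genes. Printed intensities, their means and sums, and the overlap of groups are those of the deposited values. Log2 differences and p-values are those of the normalized values, so they can differ in size from the printed intensities. After leaving out the dimmest 40%, 5244 probe sets were compared across all genes with limma 3.58.1 (lmFit and eBayes, two-sided, Benjamini-Hochberg, threshold 0.05) in R 4.3.3. Lists used each gene's brightest probe set, and some genes of the Gq list are not reported here. The fit was tested on simulated data. The receptors and lists were chosen with earlier results of these data known. Named genes were all receptor probe sets, up to 4 genes of each list with the smallest p, markers, and the 3 nearest profiles. Slc6a2 was named after its values were seen. Alternatives were other pseudocounts, normalizations, filters and variance models, array weights, a 3'/5' covariate, a block on the chip letter, and each array left out. Figures were drawn with matplotlib 3.10.9.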

Additional observations from a re-analysis of the deposited data

How the results depend on the processing

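Over all probe sets, limma called 0 higher and 0 lower in every alternative that kept 6 arrays. It called 0 to 4 higher and 0 to 1 lower as each array was left out. With 6 arrays and 5244 tested probe sets, 298 to 559 had an unadjusted p under 0.05. The count was 617 of 8740 without the filter on dim probe sets, and 311 of 3496 with the dimmest 60% left out. None of these settings called a receptor. Adra1d (AF071014mRNA_s_at) turned from 0.17 to -0.020 with array quality weights and to -0.16 with the beta-actin 3'/5' ratio as covariate, and lay between -0.063 and 0.29 as arrays were left out, below 0 without non-runner B. Adra2b lay between -0.17 and 0.034, above 0 without runner A, and Adrb3 between -0.18 and 0.046, above 0 without non-runner C. The cause was not tested. Adjusted p as arrays were left out was 0.807 to 0.995 for Adra1b, 0.728 to 0.958 for Adra1d M60654_at, and 0.724 to 0.994 and 0.882 to 0.988 for S79778mRNA_s_at and U79031_at of Adra2a. With the dimmest 60% left out, Adra1d (AF071014mRNA_s_at) and Adrb3 were the receptor probe sets still tested. The chip letter as a replicate block left the differences at 0.17, -0.08 and -0.10 for Adra1d, Adra2b and Adrb3 (limma adjusted p = 0.874, 0.944 and 0.926) and 359 probe sets at an unadjusted p under 0.05. Deviations of arrays with the same letter correlated at -0.09 to -0.04, so the letter was not taken as a pairing. The median of the G protein list was -0.06, and -0.0048 without non-runner B. With 7 of 10 receptor probe sets below the control level on all arrays, signal over background limits what can be said of Adra1a, Adra1b, Adra2a and Adrb1.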
